A study of Rattus norvegicus with 23 samples.

Results

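The comparison of rats deprived of food for 48 h with control rats rests on 9 of the 23 arrays of this series: 5 fasted and 4 control arrays, chosen by their titles. All were male Sprague Dawley rats, an outbred laboratory strain, aged 10 to 12 weeks, and each array held area postrema RNA pooled from 5 animals. The labels call the comparison group control animals and state neither their feeding nor the time of day of dissection. Beside these arrays stood 4 arrays of Sprague Dawley rats of the same age and sex dehydrated for 72 h, which entered the same model and are shown for comparison. The remaining arrays, 5 of SHR, a spontaneously hypertensive strain, and 5 of WKY, the Wistar Kyoto strain, held RNA of male rats aged 10 to 13 weeks, also pooled from 5 animals, and are used only where named. The question, from the title of the series, is how hunger alters the transcriptome of this tissue.

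The area postrema is a small organ on the floor of the medulla whose capillaries lack a tight blood-brain barrier, so its neurons are exposed to hormones and metabolites in the blood. Amylin, glucagon-like peptide 1 and GDF15 act there to reduce food intake, and its neurons relay to the neighbouring nucleus of the solitary tract. In food deprivation insulin and leptin fall, FOXO transcription factors enter the nucleus, peripheral tissues turn from making lipid to oxidising it, and glucocorticoid levels rise.

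Few probe sets passed an adjusted p of 0.05 between fasted and control arrays. Such a count does not show that few transcripts changed, and the size of difference that these arrays could miss is not given here. Values are signals on a linear scale, 1 for each probe set (the group of short probes that reads a transcript), given as mean ± SD over arrays. Differences are on the log2(signal + 16) scale, fasted minus control, which understates ratios at dim probe sets. Of 18625 probe sets tested with limma, 4 passed an adjusted p of 0.05 (0.0215%): Cdh1 and Klhl24 rose, and Cdo1 and Olfml3 fell. Before adjustment, p was below 0.05 at 1340 probe sets (7.19%), of which 622 were higher (3.34%) and 718 lower (3.86%) after fasting. All fasted arrays lay above all control arrays at 195 probe sets (1.05%) and below them at 238 (1.28%).

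Differences were small throughout. The median over all probe sets tested was 0.003 (log2), 51% were positive, and the 5th and 95th percentiles were -0.222 and 0.216, against a median standard error of 0.112. On this scale a difference of at least 1.5-fold was found at 14 probe sets higher and 21 lower after fasting. A difference of at least 2-fold was reached by 2 probe sets, both higher and neither past the threshold. They were Grm8 and 1392757_at, which has no gene symbol and lies outside the rule for naming, its values having been seen first (23.46 ± 27.41 in controls, 54.78 ± 18.55 after fasting, adjusted p = 0.7).

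**Figure D1:**
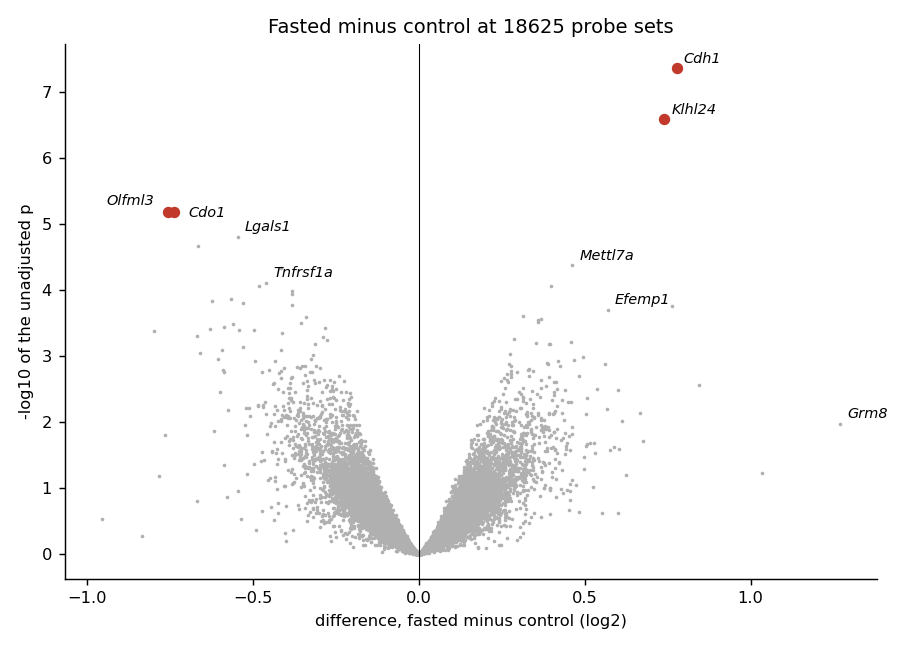
Difference between fasted and control arrays (horizontal axis, log2) against -log10 of the unadjusted p (vertical axis) for the 18625 probe sets tested. Red points are the 4 probe sets past the adjusted threshold, and Grm8 has the largest difference, 1.27, without passing.

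The arrays were alike in scale, with medians of 41.34 to 43.56 in the control and fasted groups. Pearson correlations between arrays were 0.9746 to 0.9825 within a group and 0.9742 to 0.9822 between groups. Control 3 and fasted 4 stood apart in several gene groups. The mean log2 signal of 8 choroid plexus markers was 8.1 and 8.33 there and 6.48 to 6.89 in the other control and fasted arrays. The choroid plexus, an epithelium that secretes cerebrospinal fluid, lies close to the area postrema. Relative to the control mean, 4 markers of cholinergic motor neurons of neighbouring nuclei were at 0.26 and 0.64 in these arrays and -0.21 to 0.17 in the others, and 11 genes of thyroid hormone handling, which include the choroid plexus gene Ttr, at 0.35 and 0.43 against -0.22 to 0.01. Control 3 and fasted 4 stand 1 in each of these groups, and the called genes and some of the lists are given without both as well. In dehydrated arrays 1 to 4 the choroid plexus marker mean was 7.39, 7.58, 8.19 and 6.62. The mean of the cholinergic markers there was 0.91, 0.41, 0.04 and 0.16. The dehydrated arrays share the model, and the part of such tissue in comparisons with them was not tested. For Gapdh, the 3' over 5' probe set signal ratio (log2), a measure of RNA integrity and labelling, was 0.208 to 0.568 in controls and 0.177 to 0.257 in fasted arrays, with the highest value in control 2. The label protocol of control arrays 1 and 2 lacks the closing phrase of the other arrays, so fits with control arrays 3 and 4 alone are given as well: there 0 probe sets passed with limma, and 1397 had an unadjusted p below 0.05.

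Cdh1 encodes E-cadherin, the calcium-dependent adhesion protein of epithelial adherens junctions. Its signal was 52.26, 43.13, 48.42 and 51.7 in the control arrays and 102, 102.7, 86.23, 92.63 and 92.34 in the fasted arrays. Every fasted array lay above every control array, with a wide gap between the groups. The mean was 48.88 ± 4.189 in controls (n = 4) and 95.19 ± 7.035 after fasting (n = 5), a ratio of 1.95 (log2(signal + 16) difference 0.78, SE 0.093, 95% confidence interval 0.58 to 0.97, adjusted p = 0.000807). Dehydrated rats had 93.18, 85.44, 86.02 and 85.54, within or just below the range of the fasted arrays. Dehydrated minus fasted was -0.10 (95% confidence interval -0.29 to 0.09, adjusted p = 0.767), where 6 of the 18625 probe sets (0.0322%) passed in that comparison. Dehydrated minus control, which shares the control arrays, was 0.68 (adjusted p = 0.00515). The SHR and WKY arrays, which were not in this fit, ran from 1.252 to 34.1, below every Sprague Dawley array.

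A second Cdh1 probe set, 1386446_at, had signals of 0.12 to 2.34 in the control and fasted arrays and lay below the filter, so the rise rests on probe set 1386947_at. Cdh1 was the 1 member past the threshold among 24 tested genes of adherens junctions and epithelia, and their median difference was 0.03. Without fasted 1 the 3 members with an unadjusted p below 0.05, all higher, became 5. Unadjusted p was below 0.05 for Cdh11 (0.22, adjusted p = 0.607), a mesenchymal cadherin, and for the alpha-catenin gene Ctnna2 (0.21, adjusted p = 0.625), while Cdh2, N-cadherin, differed by 0.14. A dimmer Cdh11 probe set, 1391088_at, went the other way (-0.32, unadjusted p = 0.0339 with limma), and another differed by 0.10. The epithelial genes Epcam, Krt18 and Dsp were below the filter, with means of 9.671, 22.36 and 21.6 in controls and 12.28, 25.6 and 19.09 after fasting. Cdh1 also marks the arachnoid barrier, the epithelium-like layer of the meninges. The other 2 tested markers of that layer were Ptgds (-0.96, SE 0.865) and Cldn11 (0.09). The summed signal of all 7 of its markers with a probe set, of which 3 were tested, was 1390 to 4507 in controls and 862.3 to 2457 after fasting. Their part in the result was not tested. Cdh1 no longer passed with the 23 arrays in 1 model (adjusted p = 0.0882) or with control arrays 3 and 4 alone (0.0619).

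Klhl24 encodes a kelch-domain adaptor of cullin-3 ubiquitin ligases and has been listed among genes that respond to FOXO factors. Probe set 1383300_at had signals of 70.21, 71.35, 84.99 and 70.08 in controls and 127.5, 117.8, 128.9, 154 and 145.6 after fasting. The groups did not overlap, and the lowest fasted array exceeded the highest control array. The mean rose from 74.16 ± 7.242 (n = 4) to 134.8 ± 14.66 (n = 5), a ratio of 1.82, with a log2(signal + 16) difference of 0.74 (SE 0.099, 95% confidence interval 0.53 to 0.95, adjusted p = 0.00241). Dehydrated arrays had 76.8, 78.14, 71.22 and 62.94, the level of the controls. Dehydrated minus fasted was -0.77 (95% confidence interval -0.98 to -0.56, adjusted p = 0.00128), which made Klhl24 the only named gene past the threshold in that comparison in this fit. With fasted 1 left out the named genes past it numbered 2, and with the replicate number as a block 0. Dehydrated minus control was -0.03. The SHR arrays ran from 64.38 to 89.38 and the WKY arrays from 80.16 to 132.9, the highest of which lay within the fasted range.

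The other 2 probe sets of Klhl24 did not share the rise. Probe set 1383110_at, the brightest of the 3, had 147.1 ± 30.87 in controls and 154.7 ± 20.92 after fasting (log2 0.08, 95% confidence interval -0.18 to 0.33). Probe set 1386611_at had 82.12 ± 11.57 and 78.35 ± 7.04 (log2 -0.05, 95% confidence interval -0.28 to 0.18). Which transcripts each probe set reads was not analysed here, since probe sequences were not used. As the mean over its probe sets, the difference of Klhl24 was 0.26 and short of the threshold (adjusted p = 0.302), and with control arrays 3 and 4 alone the adjusted p of probe set 1383300_at was 0.305. With the replicate number as a block it was 0.0511.

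Cdo1 encodes cysteine dioxygenase, which commits cysteine to sulfinate, taurine and sulfate. Its signals were 1003, 1185, 789.9 and 1104 in controls and 636.9, 611.4, 483.8, 605.2 and 672.6 after fasting. All fasted arrays were below all control arrays, and control 3 was the lowest of its group. The mean fell from 1021 ± 170.6 to 602 ± 71.19, a ratio of 1.7 (log2 -0.74, SE 0.118, 95% confidence interval -0.99 to -0.49, adjusted p = 0.0306). Dehydrated arrays had 565.3, 746.2, 616.2 and 520.5, and dehydrated minus fasted was 0.02 (95% confidence interval -0.23 to 0.27). The SHR and WKY arrays ran from 987 to 1316.

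Olfml3 encodes a secreted olfactomedin-domain glycoprotein of the extracellular matrix that microglia of the brain also express. Its signals were 579.4, 576, 462.3 and 595.2 in controls and 298.9, 426.9, 295.7, 261.3 and 335.7 after fasting. The groups came closest between control 3 and fasted 2 and did not overlap. The mean fell from 553.3 ± 61.19 to 323.7 ± 63.42, a ratio of 1.71 (log2 -0.76, SE 0.122, 95% confidence interval -1.01 to -0.5, adjusted p = 0.0306). Dehydrated arrays had 226.4, 323.1, 287.7 and 313.2, and dehydrated minus fasted was -0.16 (95% confidence interval -0.41 to 0.10, adjusted p = 0.719). In the strain arrays the signal was 505.2 to 747.7.

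The calls of Cdo1 and Olfml3 were each lost in 12 of the 25 other settings tried, against 3 of 25 for Klhl24 and 2 of 24 for Cdh1, which was not tested as a mean over the probe sets of a gene. Cdo1 lost its call without control 1 (adjusted p = 0.128), control 2 (0.15), control 4 (0.173), fasted 1 (0.0572), fasted 2 (0.0701), fasted 3 (0.0831) or fasted 4 (0.126). Olfml3 lost it without control 1 (adjusted p = 0.144), control 2 (0.15), control 4 (0.173), fasted 1 (0.0572), fasted 3 (0.16), fasted 4 (0.11) or fasted 5 (0.0876). Their differences in these fits stayed between -0.66 and -0.77. With the Gapdh ratio as a covariate Cdo1 differed by -0.63 (adjusted p = 0.0572) and Olfml3 by -0.73 (0.119). With control 3 and fasted 4 both left out, all 4 genes passed.

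**Figure D2:**
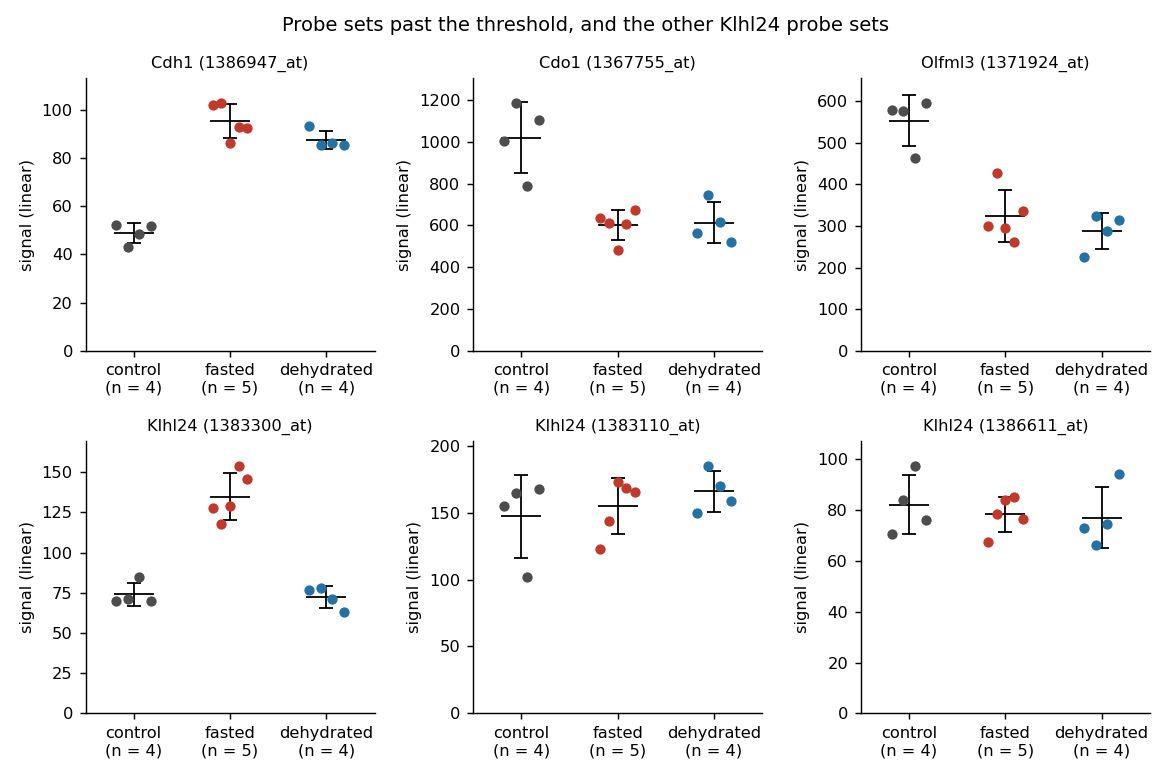
Signal on a linear scale (vertical axis) in each control, fasted and dehydrated array for the probe sets past the threshold and for the other Klhl24 probe sets; points are arrays, horizontal bars the means and whiskers 1 SD. Klhl24 1383300_at has a mean of 134.8 after fasting against 74.16 in controls and 72.27 after dehydration, while Cdh1, Cdo1 and Olfml3 have dehydrated arrays near the fasted ones.

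Promoter sequence of 250 bases before to 50 bases after the start was held for Klhl24 and Olfml3 in RefSeq's rat assembly GRCr8. Neither window contained the forkhead heptamer GTAAACA or the E-box CACCTG on either strand, which 3.78% and 18.8% of 33469 promoters of that length hold.

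Below the threshold, 29 genes are described because they had the smallest p or the largest differences between groups that did not overlap. Of these, 16 had a positive and 13 a negative difference, with adjusted p of 0.057 to 0.597, and at 28 of them the groups did not overlap, a condition for those chosen by size but not for those chosen by p. None passed in dehydrated minus fasted (adjusted p = 0.197 to 0.954).

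**Figure D3:**
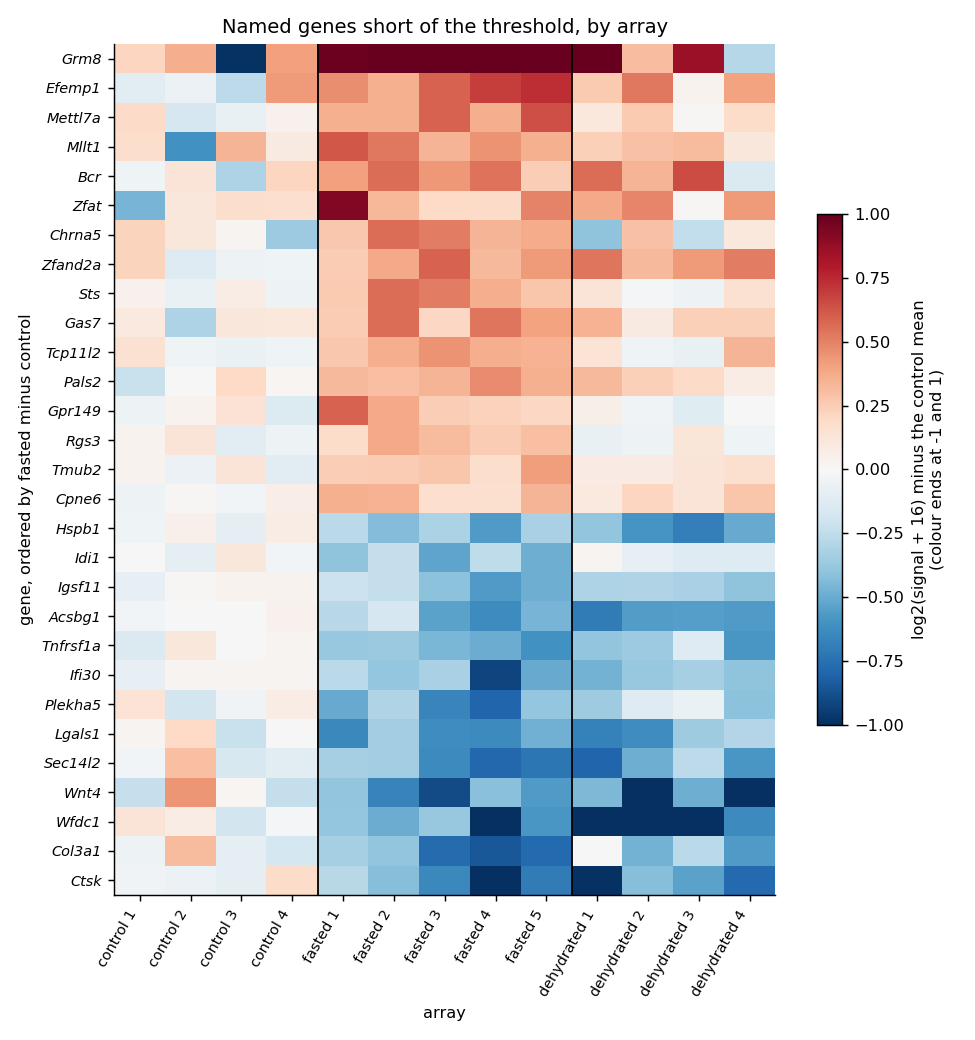
Colour gives log2(signal + 16) minus the control mean for each of the 29 genes (rows, ordered by fasted minus control) in each array (columns: control, fasted, dehydrated); red is higher and blue lower. Grm8 tops the order at 1.27, with control 3 far below the other controls, and Ctsk closes it at -0.63.

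Among the positive differences, Mettl7a, a methyltransferase-like protein of lipid droplets, had 260, 198.9, 212.9 and 232.8 in controls and 293, 292.5, 347.2, 294.5 and 360.8 after fasting (log2 0.46, SE 0.089, adjusted p = 0.105). The groups did not overlap, and the dehydrated mean was 250.3 ± 19.3. Efemp1, the extracellular matrix protein fibulin-3, had 124.3, 128.5, 109.7 and 186 in controls and 192.1, 177.2, 210.9, 227.5 and 234.8 after fasting (log2 0.57, SE 0.125, adjusted p = 0.192). Here control 4 lay within the fasted range, and without it the adjusted p was 0.0296.

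Rgs3, which shortens signalling through G proteins, had 476, 509.4, 430.6 and 449.2 in controls and 529.3, 611.6, 582.6, 557.8 and 577.3 after fasting (log2 0.29, adjusted p = 0.283), with a dehydrated mean of 462.3 ± 29.85. A dimmer Rgs3 probe set differed by 0.13, and another, below the filter, had means of 25.59 in controls and 18.07 after fasting. Gpr149, an orphan receptor, went from 153.6 ± 14.09 to 197.9 ± 25.06 (log2 0.33, adjusted p = 0.405), with 150.7 ± 8.679 after dehydration. Sts, the steroid sulfatase that frees sulfated steroids, had 66.57 ± 4.026 and 92.82 ± 10.27 (log2 0.39, adjusted p = 0.289), with 69.82 ± 6.05 after dehydration. At these 3 genes the dehydrated means lay close to the control means, but the difference from the fasted arrays did not pass for any of them (adjusted p = 0.197, 0.209 and 0.256). Zfand2a, an arsenite- and heat-inducible proteasome partner, went from 76.58 ± 10.15 to 105.7 ± 11.01 and had 110 ± 8.085 after dehydration.

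Smaller values of 0.27 to 0.39 with adjusted p of 0.226 to 0.405 were found for Tcp11l2, Pals2, Cpne6, Tmub2 and Gas7. Pals2, a scaffold protein of cell polarity, is read by 5 probe sets, whose differences were 0.15 to 0.36. Grm8, a presynaptic group III metabotropic glutamate receptor, had 45.27, 51.66, 10.55 and 53.82 in controls and 87.95, 157.8, 115.9, 116.2 and 88.37 after fasting (log2 1.27, SE 0.411, 95% confidence interval 0.36 to 2.17, adjusted p = 0.54). The wide interval goes with scattered values, and in the dehydrated arrays Grm8 ran from 27.15 to 166.3. Another Grm8 probe set differed by -0.19. Chrna5, the alpha-5 nicotinic acetylcholine receptor subunit, differed by 0.41 (adjusted p = 0.513), and the dimmer Mllt1, Bcr and Zfat by 0.46, 0.44 and 0.43. Other tested Mllt1 probe sets differed by 0.18 and -0.17.

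Among the negative differences, Lgals1, the carbohydrate-binding protein galectin-1, was nearest to the threshold. It had 419.9, 474.8, 350.7 and 414.3 in controls and 258.2, 320.5, 262.2, 259.8 and 291.6 after fasting (log2 -0.55, SE 0.097, adjusted p = 0.057), and the groups did not overlap. It passed in 8 of the 25 other settings tried. Acsbg1, a long-chain acyl-CoA synthetase of astrocytes, had 892.5, 906.6, 907.9 and 936.2 in controls and 747.7, 809.6, 622.3, 584.1 and 654.8 after fasting (log2 -0.42, adjusted p = 0.105). Control arrays were close together and fasted arrays scattered below them. Acsbg1 passed without fasted 2 (adjusted p = 0.0206).

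Idi1, an isomerase of the mevalonate pathway to cholesterol, had 201.1, 187.6, 219 and 196.8 in controls and 148, 167.5, 134.6, 165.8 and 138.4 after fasting (log2 -0.38, SE 0.083, adjusted p = 0.18). All fasted arrays were below all controls, and the dehydrated mean was 189.7 ± 10.64. A second Idi1 probe set differed by -0.36. Tnfrsf1a, the main receptor for tumour necrosis factor, had 167.9, 203.1, 187.6 and 190.9 in controls and 140, 141.3, 132, 128.1 and 117.6 after fasting (log2 -0.46, adjusted p = 0.145).

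Ifi30, a lysosomal thiol reductase of antigen-presenting cells, had 570.2 ± 21.71 and 409 ± 70.26 (log2 -0.48, adjusted p = 0.145). Ctsk, the collagen-degrading protease cathepsin K, had 500.1 ± 47.5 and 322.9 ± 71.13 (-0.63, adjusted p = 0.241), and Col3a1, a fibrillar collagen chain, 288.6 ± 48.17 and 182.4 ± 33.78 (-0.62, adjusted p = 0.178). Fasted 4 was the lowest array for each of these 3 genes. Hspb1, a small heat shock protein, differed by -0.38 (adjusted p = 0.164), Wfdc1, a secreted whey acidic protein family member, by -0.59 (0.335), and Wnt4, a secreted Wnt ligand, by -0.59 (0.405). Sec14l2, a lipid-binding protein, Plekha5 and the adhesion protein Igsf11 differed by -0.57, -0.53 and -0.38. Second, dimmer probe sets of Sec14l2 and Plekha5 differed by -0.14 and 0.10. Cstf2, a polyadenylation factor outside the rule for naming because probe set 1392829_at is not its brightest, differed by -0.67 (adjusted p = 0.0654).

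Genes were then read by 22 function lists, each gene by its brightest probe set. Many list members and cell type markers given below lie outside the rule for naming. No list is tested as a whole: the count of members with an unadjusted p below 0.05 stands beside the 3.34% higher and 3.86% lower over all probe sets, and the median beside 0.003. Those values over all probe sets also cover dimmer probe sets of the same genes and probe sets without a symbol. The share over brightest probe sets alone is not given here. Members of a pathway vary together between arrays and are not independent. The lists were chosen with earlier results of these data known, and several hold genes already named above. Their shares are therefore descriptions and cannot measure enrichment. Besides Cdh1, Cdo1 and Olfml3 no list member read this way passed the adjusted threshold. In bulk tissue, fewer cells of a type and less RNA per cell cannot be told apart.

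**Figure D4:**
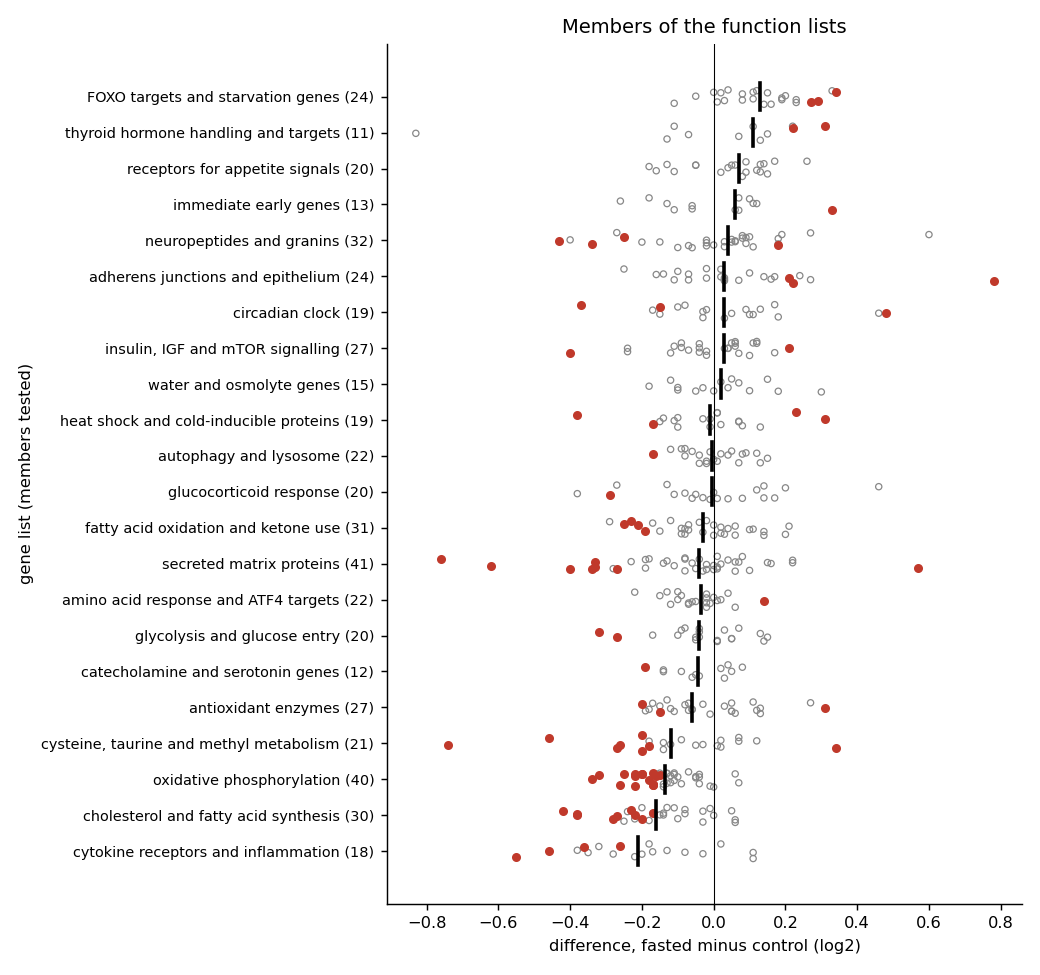
Difference between fasted and control arrays (horizontal axis, log2) for every tested member of the 22 function lists, ordered by median (black bar); filled red points have an unadjusted p below 0.05 and open points do not. The medians run from 0.13 for FOXO targets to -0.21 for cytokine receptors and inflammation, and most lists centre near 0.

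FOXO targets and starvation genes had the highest median, 0.13, with 21 of 24 tested members positive. Only 3 had an unadjusted p below 0.05, all higher, which is 12.5% of the list. Txnip, which restrains glucose uptake and binds thioredoxin, had 431.4, 305.6, 322.6 and 344.6 in controls and 364, 442.5, 489.1, 456.1 and 478.9 after fasting (log2 0.34, adjusted p = 0.513). Control 1 and fasted 1 overlapped the other group. The dehydrated mean was 297.6 ± 50.63, and dehydrated minus fasted was -0.57 (adjusted p = 0.118).

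Sesn1, a leucine sensor that restrains mTORC1, had 172.8 ± 15.02 and 213.1 ± 28.56 (0.27), and Cited2, a transcriptional coregulator, 362 ± 24.62 and 448.4 ± 67.75 (0.29). A dimmer Sesn1 probe set, below the filter, had means of 28.4 in controls and 21.7 after fasting. Pdk4, the kinase that blocks pyruvate entry into the citric acid cycle, had 418.5 ± 9.624 and 463.5 ± 37.19 (0.14, adjusted p = 0.792), with all fasted arrays above all controls. Foxo1 and Foxo3 differed by 0.23 and 0.11. The muscle ubiquitin ligases Fbxo32 and Trim63, classic starvation genes elsewhere, were below the filter. The mean of the list in single arrays, relative to the control mean, was -0.04 to 0.06 in controls, 0.07 to 0.23 after fasting and -0.05 to 0.04 after dehydration. Klhl24 enters this list by its brightest probe set, 0.08, and not by the probe set that rose. The count of 3 was 5 without control 2 or without fasted 4, and 6 without control 3 and fasted 4 together.

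Cholesterol and fatty acid synthesis had a median of -0.16, with 26 of 30 tested members negative. Of these, 9 had an unadjusted p below 0.05, all lower, or 30% of the list. Besides Acsbg1 and Idi1 they were Acly, Fads2, the elongase gene Elovl6 (-0.28), Fads1, Insig1, Acaca and Dhcr7. Acly, the ATP citrate lyase that makes cytosolic acetyl-CoA, had 1098, 874, 913.6 and 990.5 in controls and 723.5, 928, 762.1, 832.6 and 762.5 after fasting (-0.27, adjusted p = 0.463). Fasted 2 lay within the control range. Acaca, the acetyl-CoA carboxylase that opens fatty acid synthesis, had 211.8 ± 10.2 and 186.5 ± 6.005 (-0.17), and here the groups did not overlap.

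The delta-6 desaturase gene Fads2 had 114.5 ± 15.98 and 84.21 ± 14.02 (-0.38, adjusted p = 0.5), and Fads1, the delta-5 desaturase, 2053 ± 107 and 1762 ± 274.7 (-0.23). Dhcr7, a late enzyme of cholesterol synthesis, had 148.9 ± 15.95 and 125.1 ± 7.072 (-0.22), and Insig1, which holds back SREBP processing, 315.3 ± 25.96 and 273.2 ± 23.96 (-0.20). The regulators Srebf2 and Srebf1 differed by -0.22 and 0.06, and Fasn by -0.08. The mean of the list was -0.05 to 0.07 in controls, -0.21 to -0.08 after fasting and -0.13 to 0.08 after dehydration. Without control 4 the count of 9 was 5.

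Of 40 tested genes of oxidative phosphorylation, 37 had a negative difference, and 16 (40%) had an unadjusted p below 0.05, all lower. The median was -0.14. Uqcrq, a small subunit of complex III, had 1751, 2092, 1866 and 1881 in controls and 1667, 1559, 1476, 1265 and 1529 after fasting (-0.34, SE 0.077, adjusted p = 0.221). The groups did not overlap for Uqcrq and Atp5f1c. Cox6a1 of complex IV had 2734 ± 137.7 and 2339 ± 126.3 (-0.22), and Atp5mc3 of the ATP synthase 3888 ± 158.9 and 3341 ± 295.7 (-0.22). Sdha of complex II, Atp5f1a of the ATP synthase and Uqcrc1 of complex III differed by 0.06, -0.05 and -0.04.

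This count moved with single arrays: it was 7 without control 2, 9 without control 4 or fasted 3, 6 without fasted 4 and 26 without fasted 1. Its median ran from -0.17 to -0.10 over these fits. With control 3 and fasted 4 both left out it was 7, with control arrays 3 and 4 alone 8, with the replicate number as a block 10 and with the Gapdh ratio as a covariate 9. The mean of the list was -0.06 to 0.06 in controls and 0.04, -0.11, -0.19, -0.29 and -0.12 in fasted arrays 1 to 5, so that fasted 1 lay among the controls.

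Genes that burn fuel showed a mixed picture. Fatty acid oxidation and ketone use had a median of -0.03 over 31 genes, and 4, all lower, had an unadjusted p below 0.05: Acadvl (-0.23), Etfa (-0.25), Etfb (-0.21) and Eci1 (-0.19). That count was 2 without control 4, fasted 3 or fasted 4. The carnitine palmitoyltransferase gene Cpt1a differed by 0.02 and the uncoupling protein gene Ucp2 by -0.09. Of 20 glycolysis genes, Ldha, the lactate dehydrogenase A chain, had 2183 ± 207.6 and 1748 ± 232.9 (-0.32, adjusted p = 0.405), and Aldoc, the aldolase of astrocytes, 4100 ± 178.5 and 3420 ± 438.8 (-0.27, adjusted p = 0.431). The median of that list was -0.04.

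The list of cysteine, taurine and methyl metabolism, which holds Cdo1, had a median of -0.12 over 21 genes, 14 negative and 7 positive. Of these, 8 (38.1%) had an unadjusted p below 0.05, of which 7 were lower. Cbs, which joins homocysteine to serine, had 902.1, 898.8, 832.5 and 948 in controls and 745.5, 849.4, 753.3, 639.4 and 756.9 after fasting (-0.26, adjusted p = 0.5). Only fasted 2 reached the control range. Got1, the cytosolic aspartate aminotransferase, had 307.4 ± 29.03 and 221.4 ± 41.92 (-0.46), and Csad, which makes hypotaurine from the product of Cdo1, 384.3 ± 34.08 and 338.1 ± 22.52 (-0.18).

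Mat2a, which makes the methyl donor S-adenosylmethionine, differed by -0.20, and the cobalamin carrier and receptor genes Tcn2 and Cd320 by -0.27 and -0.20. Fmo1, a monooxygenase that can form taurine from hypotaurine, went the other way, 71.83 ± 13.21 and 94.82 ± 11.48 (0.34, adjusted p = 0.513), and the taurine transporter gene Slc6a6 differed by 0.02. The mean of the list was -0.04 to 0.05 in controls and -0.18 to -0.05 after fasting. Without control 4 the count of 7 lower was 4, and with control arrays 3 and 4 alone it was 2.

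The list of cytokine receptors and inflammation had the lowest median, -0.21, with 15 of 18 tested members negative and 4 (22.2%), all lower, with an unadjusted p below 0.05. These were Lgals1, Tnfrsf1a, Stat3, the transcription factor downstream of leptin and interleukin 6 receptors (168.2 ± 23.85 and 136.8 ± 12.24, -0.26, adjusted p = 0.574), and Ptgs2, the prostaglandin synthase COX-2 (42.2 ± 9.161 and 29.09 ± 4.687, -0.36). Lgals1 and Tnfrsf1a were already named above for their small p. A second, dimmer Stat3 probe set differed by 0.17. The inhibitor gene Nfkbia differed by -0.38 and Nfkb1 and Rela by 0.11 each. The cytokine genes Tnf, Il1b and Il6 were below the filter. The mean of the list was -0.06 to 0.09 in controls, -0.26 to -0.12 after fasting and -0.24 to -0.17 after dehydration.

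**Figure D5:**
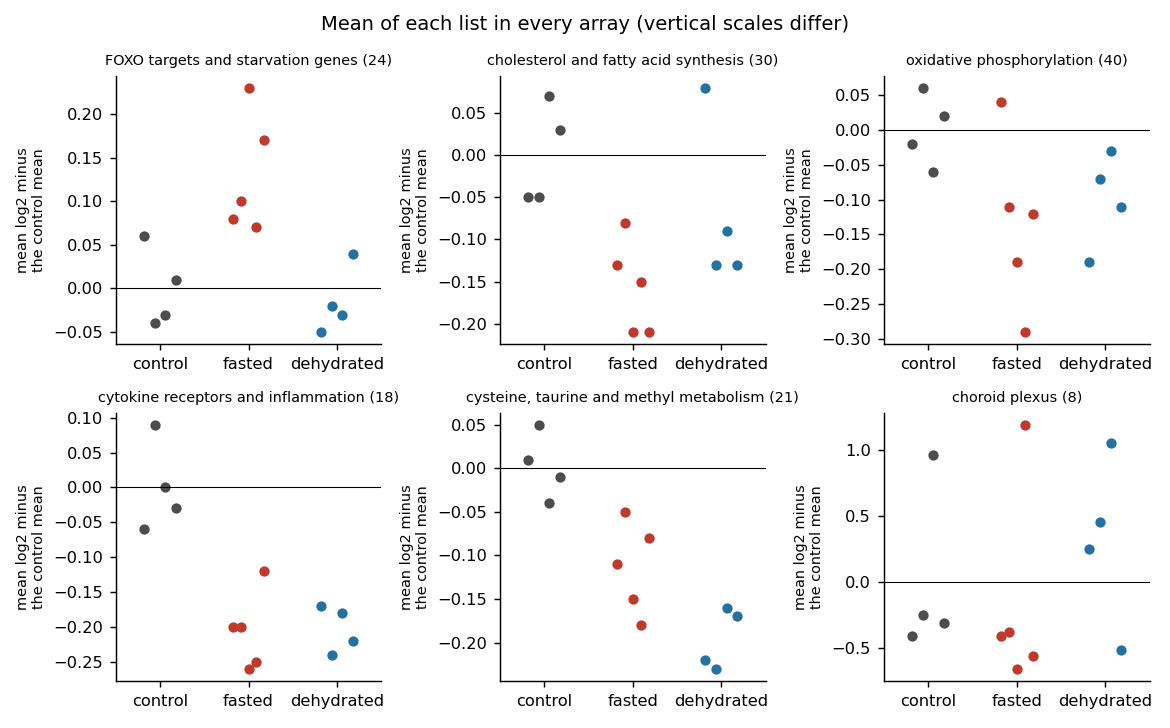
Mean log2(signal + 16) of the tested members of 6 lists in each array, relative to the control mean (vertical axis, scales differ between panels), for control, fasted and dehydrated arrays. The FOXO list is at 0.07 to 0.23 in fasted arrays and at most 0.06 in controls, and oxidative phosphorylation overlaps between groups. The choroid plexus markers are high in control 3 and fasted 4, and run from -0.52 to 1.05 in dehydrated arrays.

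Secreted matrix proteins held Olfml3 and both directions. Of 41 tested genes, 7 had an unadjusted p below 0.05 and were lower, 1 (Efemp1) was higher, and the median was -0.04. With control arrays 3 and 4 alone the 7 became 3. Timp1, an inhibitor of matrix metalloproteinases, had 198.3 ± 31.8 and 154.1 ± 14.38 (-0.33, adjusted p = 0.5) and the laminin gene Lama4 49.21 ± 5.454 and 35.83 ± 4.881 (-0.33), both without overlap. Lum, Ogn and Mgp differed by -0.40, -0.34 and -0.27, and Fn1, Col6a1 and Sparc by 0.00, 0.02 and 0.06. Fibroblast and meningeal markers, of which 11 of 12 were tested, Col3a1, Lum and Ogn among them, had summed signals of 6350 to 8135 in controls and 6202 to 7545 after fasting. Their median difference was -0.18, 8 of 11 were negative and 3 (27.3%) were lower with an unadjusted p below 0.05, or 1 with control arrays 3 and 4 alone. Their part in these differences was not tested.

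Receptors through which the area postrema reads appetite signals showed no member below an unadjusted p of 0.05 among 20 tested, and the median was 0.07. Without fasted 1 there were 3 such members, all higher, and without control 4 there were 2, both lower. Without control 2 there was 1 lower, and without fasted 5, where the median was 0.03, 1 of 19 higher. With the Gapdh ratio as a covariate 2 were higher and the median was -0.02, and with the replicate number as a block 1 was higher. Calcr, the calcitonin receptor that forms the amylin receptor with RAMP proteins, had 134.4, 95.56, 150.1 and 118.1 in controls and 110.8, 125.1, 101.5, 99.72 and 118.4 after fasting. The groups overlapped widely (log2 -0.13, 95% confidence interval -0.37 to 0.10). A dimmer Calcr probe set went the other way (0.22, unadjusted p = 0.118 with limma). The Calcr partner Ramp3 had 72.22 ± 7.445 and 74.67 ± 7.671 (0.04, 95% confidence interval -0.19 to 0.26).

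Glp1r, the receptor for glucagon-like peptide 1, was dim at 31.19 ± 8.38 and 34.57 ± 10.41 (0.09, 95% confidence interval -0.25 to 0.44). The ghrelin receptor gene Ghsr had 35.26 ± 11.04 and 33.21 ± 8.318 (-0.05, 95% confidence interval -0.37 to 0.27) and the insulin receptor gene Insr 27.06 ± 3.716 and 31.83 ± 10.85 (0.12, 95% confidence interval -0.22 to 0.47). Lepr, Npy2r and Mc4r, the leptin, neuropeptide Y and melanocortin receptors, were below the filter, the brightest Lepr probe set having 17.69 ± 3.286 and 18.4 ± 4.989.

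Transmitter and peptide genes of the region were measured well in part. Th and Dbh, the catecholamine enzymes tyrosine hydroxylase and dopamine beta-hydroxylase, had 320 ± 8.81 and 289.5 ± 34.39 (-0.14) and 324.2 ± 55.59 and 326 ± 19.87 (0.02). Cartpt, which encodes the anorexigenic peptide CART, had 2422 ± 249.2 and 2195 ± 377.8 (-0.15, adjusted p = 0.834), and Npy 153.7 ± 41.65 and 153.1 ± 49.22. Pomc and Gcg, the precursors of melanocortins and of glucagon-like peptide 1, were below the filter. Tac1, the substance P precursor, differed by -0.06.

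Of 32 peptide and granin genes 4 had an unadjusted p below 0.05, 3 of them lower, and without control 4 or without fasted 4 the 3 became 1. Trh, thyrotropin-releasing hormone, had 61.27, 70.33, 61.19 and 84.39 in controls and 53.14, 44.93, 55.05, 34.01 and 48.93 after fasting, without overlap (-0.43, SE 0.127, adjusted p = 0.431). Prlh, prolactin-releasing peptide, which the neighbouring solitary nucleus makes, had 48.72 ± 15.57 and 34.21 ± 5.666 (-0.34), with 2 of 4 controls inside the fasted range. Its dehydrated arrays were at 53.29 to 68.92, above all fasted arrays, but dehydrated minus fasted did not pass (0.63, adjusted p = 0.197). Nmb, neuromedin B, differed by -0.25 and Pcsk1n, the proSAAS precursor, by 0.18.

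The lists of immediate early genes, glucocorticoid response and autophagy centred near 0. Among 13 immediate early genes Egr1 differed by 0.33 (adjusted p = 0.673), with control 3 lowest at 30.92, and Fos by 0.07 (58.95 ± 10.12 and 62.77 ± 11.92). Fkbp5, a glucocorticoid-induced chaperone partner of the receptor, had 142.8, 141.6, 131.4 and 134.2 in controls and 110.4, 104.1, 102.8, 119.7 and 109.8 after fasting (-0.29, adjusted p = 0.463), and the groups did not overlap. The median of the 20 glucocorticoid response genes was -0.01. Of 22 autophagy and lysosome genes 1, Map1lc3a, had an unadjusted p below 0.05 (-0.17), and their median was -0.01.

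Clock genes differed singly. Npas2, a partner of BMAL1, had 41.73, 39.11, 50.71 and 51.02 in controls and 49.43, 69.37, 88.45, 82.45 and 65.33 after fasting (0.48, SE 0.137, adjusted p = 0.43), where only fasted 1 reached the control range. Dbp, a clock output gene, had 211.3 ± 54.95 and 157.5 ± 21.95 (-0.37, adjusted p = 0.515), and the median of 19 clock genes was 0.03. The 11 tested genes of thyroid hormone handling had a median of 0.11, and 2 (18.2%), both higher, had an unadjusted p below 0.05. With control 3 and fasted 4 both left out, 2 of 10 were higher and 1 lower. The thyroid receptor gene Thra (0.22) and the cold-inducible Cirbp (0.23) had fasted arrays all above the controls, as had Akt1 (0.21), whose 2 dimmer probe sets differed by 0.02 and -0.21. Igf1 had 269.1 ± 50.76 and 199.2 ± 31.57 (-0.40, adjusted p = 0.59).

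The summed signals of each set of tissue markers overlapped between the groups, while single markers such as Cdh1, Acsbg1 and Col3a1 did not. Summed signals of the 15 neuronal markers were 12390 to 12697 in controls and 12416 to 14048 after fasting, and those of 8 area postrema and dorsal vagal neuron markers 4460 to 4957 and 3742 to 4869. Gfral, a defining receptor of area postrema neurons, has no probe set with a single symbol here. Choroid plexus markers, of which 8 of 13 with a probe set were tested, summed to 2000 to 10494 in controls and 1620 to 11838 after fasting. With their mean log2 as a covariate, a setting chosen after seeing the data, 9 probe sets passed, those of Cdh1, Klhl24, Cdo1 and Olfml3 among them.

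Astrocyte markers (11 with a probe set, of which 10 were tested) summed to 17657 to 20615 and 16543 to 20380, and Acsbg1 and Aldoc are among them. Their median was -0.17, with Gfap at 1006 ± 483.9 and 691.5 ± 194.2, Gja1 at 0.01 and Slc1a3 at 0.00. Microglia and macrophage markers (16 with a probe set, of which 13 were tested) summed to 1955 to 2118 and 1802 to 2056. Among them Cd68, a lysosomal protein of phagocytes, had 61.75 ± 9.261 and 41.25 ± 13.07 (-0.46, adjusted p = 0.509), Tyrobp differed by -0.25 and Tmem119 by 0.39, while Csf1r, C1qa and C1qb differed by 0.03, -0.04 and 0.05. The part of these cell types in the values of Acsbg1, Ifi30, Ctsk or Olfml3 was not tested.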

How the data were processed

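The authors' deposited values are linear intensity signals of Affymetrix Rat Genome 230 2.0 arrays, made with GCOS 1.2 per the submitters' processing notes. Each array's mean after trimming 2% at each end was 100.0, so they were used without further normalization. Of 31099 probe sets 57 are controls, and 20826 of the rest carry exactly 1 symbol. Symbols came from the platform annotation and the GRCr8 gene table. Log2(signal + 16) values of the 13 Sprague Dawley arrays were fitted in 1 limma model (limma 3.58.1, R 4.3.3, trend and robust eBayes, two-sided) over 18625 probe sets with a mean at or above the 40th percentile, adjusted by Benjamini-Hochberg at 0.05. Each array is a pool, so p-values measure the spread between pools, and their number limits the precision. Tables and plots used Python 3.11.15.

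Groups came from the titles. Genes were named by rule: all past the threshold, the 12 smallest p and the 8 largest non-overlapping differences in each direction, up to 3 per list with an unadjusted p below 0.05, and a set of receptors and transmitters. Further list members and markers given in the text lie outside this rule, and some genes under it are not described. Members, lists and rule were chosen with earlier results of these data known. The pipeline was tested on simulated arrays with shifted probe sets, and the share of them recovered is not given here. Alternatives were other pseudocounts, quantile normalization, median centring, other filters, plain eBayes, array weights, other sets of arrays, a replicate block, the Gapdh ratio, the mean of each gene's probe sets, each array left out, and 2 chosen after seeing the data. Control arrays 1 and 2 lack the closing phrase of the other arrays' label protocol. Replicate numbers are not known to pair the samples. Deviations from the group means correlated at -0.154 to 0.027 between control and fasted arrays of the same number, which cannot exclude a pairing.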

Additional observations from a re-analysis of the deposited data

Results flagged for a closer look

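Control and fasted groups were tested for an array far from the rest of its group at the named probe sets (168 groups, of which 14 held 1) and for the Gapdh ratio and the choroid plexus marker mean (4 groups, of which 2 held 1). In all, 16 of 172 groups (9.3%) held 1, where chance gives about 1 in 20. Control 3 was far below the other controls for Olfml3 (462.3), Klhl24 probe set 1383110_at (101.6), Grm8 (10.55), Acadvl (351.7) and Ldha (1872), and far above them for Klhl24 probe set 1383300_at (84.99). The mean log2 signal of the choroid plexus markers was also far above the rest in control 3 (8.1) and in fasted 4 (8.33). Fasted 4 was far below the other fasted arrays for Wfdc1 (353.1).

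In control 1 Tcp11l2 was far above (423.8), and Ifi30 (537.7) and Zfat (14.37) were far below the other controls. Gas7 was far below in control 2 (90.05) and Got1 in control 4 (263.9). Among fasted arrays Pcsk1n was low in fasted 3 (901) and Cox6a1 high in fasted 1 (2559).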

How the results depend on the processing

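With 4 probe sets past the threshold, the count was 2 with median centring, 2 with no filter, 2 with eBayes without trend and robust, 2 with the probe sets of each gene averaged (8530 genes), 9 with the choroid plexus covariate chosen after seeing the data, and 0 with control arrays 3 and 4 alone by limma, where 1397 had an unadjusted p below 0.05; leaving out 1 array gave 2 to 6. Of the named genes in dehydrated minus fasted, 1 passed; with the replicate block 0 did, and leaving out 1 array gave 1 to 2. With the replicate block 3 probe sets passed in fasted minus control; the replicate numbers are not known to pair samples, and 0 of 4 control arrays correlated best with the fasted array of their number. Klhl24, Cdo1 and Olfml3 kept their direction in 25 settings, where the mean over probe sets stands for the called Klhl24 probe set in 1, and Cdh1 in the 24 in which it was tested. Of the named probe sets 29 results lost and 14 gained a call, among the latter Lgals1, Acsbg1, Efemp1, Ifi30, Hspb1, Idi1 and Wfdc1. Signs turned in some setting at the uncalled Klhl24 probe sets, Cdh11, Calcr, Ramp3, Glp1r, Ghsr, Dbh, Tac1, Fos and Npy. List medians kept their sign for FOXO targets, lipid synthesis, oxidative phosphorylation, cytokine receptors, sulfur amino acids and matrix. That of appetite receptors was -0.02 with the Gapdh ratio as covariate. The median of immediate early genes, 0.06, was -0.04 with control 3 and fasted 4 both left out. Medians of the autophagy, glucocorticoid, insulin and mTOR, clock, heat shock and osmolyte lists also changed sign in some setting. The causes were not tested. Signals near background compress differences.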
